A study of Mus musculus with 3 samples.

Results

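The start side of Kmt5b, the gene formerly called Suv420h1, was examined for mTOR and ERRα on mouse liver chromatin, in a window of 21 kb at chr19:3757001-3778000 (build mm9). Kmt5b lies on the plus strand, and its start was taken near 3767421. The window was chosen by its mTOR level in these same data, so every mTOR value at the peak is a description and supports nothing. It held 1 of the 9069 mTOR regions of the genome, at chr19:3767401-3768800. The working name of the locus was a promoter with the highest mTOR level. The peak lay downstream of this start, and its level was the highest outside repeats but not in the whole genome. RefSeq lists a further Kmt5b start downstream on another build, and whether the peak sits at that start was not determined. Without an annotation of mm9 here, the peak could not be assigned to an exon or an intron.

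Kmt5b encodes a histone methyltransferase that adds further methyl groups to a lysine of the tail of histone H4 that already carries one. The resulting marks are known from silent chromatin, DNA repair and chromosome compaction. mTOR is a serine/threonine kinase known for its control of growth and metabolism from the cytoplasm and lysosome, and the protein has also been found in the nucleus. ERRα is an orphan nuclear receptor that binds DNA at estrogen-related receptor elements and is known for its role at genes of mitochondrial metabolism.

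ChIP-seq, in which DNA bound to a protein is pulled down with an antibody and sequenced, was carried out on liver from C57Bl/6 males of 2 to 3 months; the labels name no treatment or genotype. The 3 libraries, 1 per group, came from antibodies to mTOR, to ERRα and from rabbit immunoglobulin G (IgG), which served as the control. Each ChIP library combined 8 immunoprecipitations from pooled chromatin of 26 livers, so individual animals cannot be told apart. How the IgG library was pooled is not stated in the labels. With 1 library per group nothing below could be checked in a repeat, and the comparisons are between libraries, not conditions. The study's title concerns fatty liver caused by rapamycin, and no library of treated mice was analysed here.

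Values are tag coverage, the number of sequenced fragments over a base, which the authors scaled to 10000000 tags per library. The libraries held 62500000 tags for mTOR, 74200000 for ERRα and 68800000 for IgG, so that 1 tag was worth 0.160, 0.135 and 0.145 units. Most ratios between libraries are given with an exact 95% Clopper-Pearson interval computed from the approximate number of tags. Such intervals include counting error alone and treat tags as independent.

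RefSeq lists 2 start sites for Kmt5b on build GRCm38.p6, 468 bp apart, and the 250 bases before each are shown because the mTOR peak lay beyond the first start. Capitals mark the GC box GGGCGG, on either strand. The builds of the tracks and of these sequences differ, so no base below was placed on the coverage profile. The mTOR summit described below lay 580 bp from the start on mm9, and start 2 lies 468 bp from start 1 on the other build. Start 1 has the coordinate 3767421 on GRCm38.p6, the same as the start taken on mm9, and start 2 is at 3767889. Whether the peak sits at start 2 was not tested, since these distances come from different builds.
Kmt5b start 1, chr19:3767171-3767420, plus strand: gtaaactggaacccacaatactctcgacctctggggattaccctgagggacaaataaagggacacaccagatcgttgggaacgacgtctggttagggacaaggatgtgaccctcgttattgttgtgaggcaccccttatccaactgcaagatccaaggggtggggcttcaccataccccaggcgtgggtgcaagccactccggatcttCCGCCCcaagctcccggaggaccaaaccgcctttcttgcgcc
Kmt5b start 2, chr19:3767639-3767888, plus strand: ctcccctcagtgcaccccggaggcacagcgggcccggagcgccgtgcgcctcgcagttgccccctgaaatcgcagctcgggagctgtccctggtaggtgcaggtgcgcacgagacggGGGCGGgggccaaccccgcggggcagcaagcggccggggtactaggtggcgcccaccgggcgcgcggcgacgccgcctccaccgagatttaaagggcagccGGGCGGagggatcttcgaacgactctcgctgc
The sequence before start 1 was 56.4% G and C with 11 CpG dinucleotides, and that before start 2 was 73.2% G and C with 31. Of the 32851 RefSeq windows of the same length, 64.4% had fewer CpGs than the first and 94.8% had fewer than the second. The window before start 2 therefore ranked high in CpG density, while the window before start 1 was near the middle.

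The 13 motifs of the list were searched in these windows on both strands. The GC box GGGCGG, known as the binding sequence of Sp1-type factors, occurred 1 time before start 1, at -42 on the minus strand, and 2 times before start 2, at -133 and -32 on the plus strand. It occurred in 32.7% of all windows. Neither the estrogen-related receptor element TCAAGGTCA, present in 0.387% of all windows, nor its core AGGTCA, present in 14.0%, occurred before either start. The core is contained in the full element. Also without a match were the CCAAT box with the letters CCAAT (33.8% of all windows), the TATA box with TATAAA (12.4%) and the ETS core with CCGGAAG (6.91%). The same held for the E-box with CACGTG (6.02%), the CRE with TGACGTCA (1.55%), the NRF1 core with GCGCATGCG (1.45%) and the palindrome with CTCGCGAG (0.761%). The YY1 core with AAGATGGCG (0.606%), its shorter and overlapping form with ATGGCG (5.73%) and the ZNF143 core with ACTACAATT (0.365%) had no match either. The absence of a match says only that these letters are not in these windows.

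mTOR coverage rose to a single tall peak on the transcribed side of the Kmt5b start, and the called region began at -20 bp. At the start itself mTOR coverage was 3.20, ERRα coverage 1.00 and IgG coverage 0.700. The summit lay 580 bp downstream of the start, at position 3768001, with 606 for mTOR, 1.4 for ERRα and 0.600 for IgG. The level at the start was 0.528% of that at the summit. The ERRα and IgG libraries showed no peak of this kind at the same base.

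In 200-bp bins the highest mTOR value was 426, from 580 to 779 bp downstream of the start, where ERRα stood at 1.01 and IgG at 0.600. mTOR was therefore 533-fold over IgG (interval 300.0 to 1782.5) after a pseudocount of 0.2 was added to both values, and 352-fold over ERRα (230 to 883; the intervals are without the pseudocount). The upper bounds are wide because the IgG value rested on about 6 tags and the ERRα value on about 10, while the mTOR value rested on about 3563. The bin before it, from 380 to 579 bp, was nearly as high at 406, with 1.35 for ERRα and 0.614 for IgG, or 499-fold over IgG (286 to 1700.5).

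**Figure D1:**
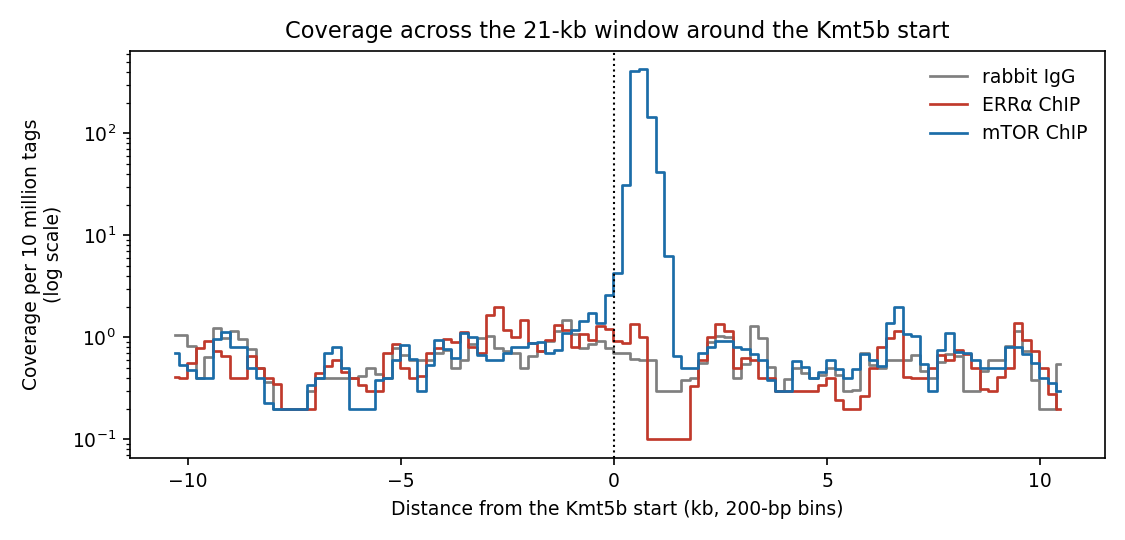
Coverage in 200-bp bins (vertical axis, per 10000000 tags, log scale) against distance from the Kmt5b start (horizontal axis, kb; dotted line at the start) for the 3 libraries, 1 line each. The mTOR line reaches 426 in the bin from 580 to 779 bp, while ERRα and IgG stay at or below 1.99 and 1.47 in the whole window.

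Calling required a ChIP value of at least 3 times IgG, with the pseudocount added to both, and a coverage above 2.01, a level that 1 in 1000 covered IgG bins exceeded. In the window, 7 of 105 bins were called for mTOR (6.67%), against 0.129% of all bins of the genome. The window was chosen for this peak, so nothing is read from that difference. The 7 bins were adjacent and formed the 1400-bp region. From upstream to downstream, their mTOR coverage was 4.27, 31.0, 406, 426, 146, 42.2 and 6.27. The corresponding folds over IgG ran from 4.96 in the first bin to 533 in the fourth and back to 12.9 in the last. The lower bound of the interval was above 1 in each of these bins, and was smallest in the first at 2.76. These bins were called by this same ratio, so the bounds are a description and nothing is read from them.

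At base resolution the lower part of the peak was steeper on its upstream side. Coverage stayed at or above 50% of the maximum from 437 to 751 bp downstream of the start, a width of 315 bp. At this height the edges lay 143 bp upstream and 171 bp downstream of the summit. The balance between the sides changed with the height: at 90% of the maximum the upstream edge was the farther, at 33 bp against 19 bp, and at 75% both were at 100 bp. At 10% of the maximum the width was 658 bp, with 221 bp on the upstream side and 436 bp on the downstream side, a ratio of 1.97, and at 1% the ratio was 1.64. The downstream side was thus the longer one from 50% of the maximum downward, and the point that splits the region's coverage evenly lay at 612 bp, past the summit.

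The rise could be followed in 50-bp steps. mTOR coverage was 27.3 in the step from 280 to 329 bp, 61.3 in the next, 197 from 380 to 429 bp and 373 from 430 to 479 bp. Coverage thus rose steeply within about the length of a tag. The decline took longer: coverage was 205 from 780 to 829 bp, 104 from 930 to 979 bp, 32.8 from 1080 to 1129 bp and 4.04 from 1280 to 1329 bp. It was 0.5 from 1430 to 1479 bp, within the range of the rest of the window, so no plateau continued into the gene.

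The peak had few substructures. Apart from the summit, 2 local maxima stood out from their surroundings by at least 1% of the summit. One was a shoulder of 509 at 630 bp, only 50 bp from the summit, and the other a small step of 126 at 928 bp, or 20.8% of the summit and 348 bp beyond it. ERRα and IgG were at 1.00 and 0.600 at the first and at 0.100 and 0.600 at the second. Those tracks held 6 and 5 stretches of constant coverage in the region, too few to show steps this small.

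**Figure D2:**
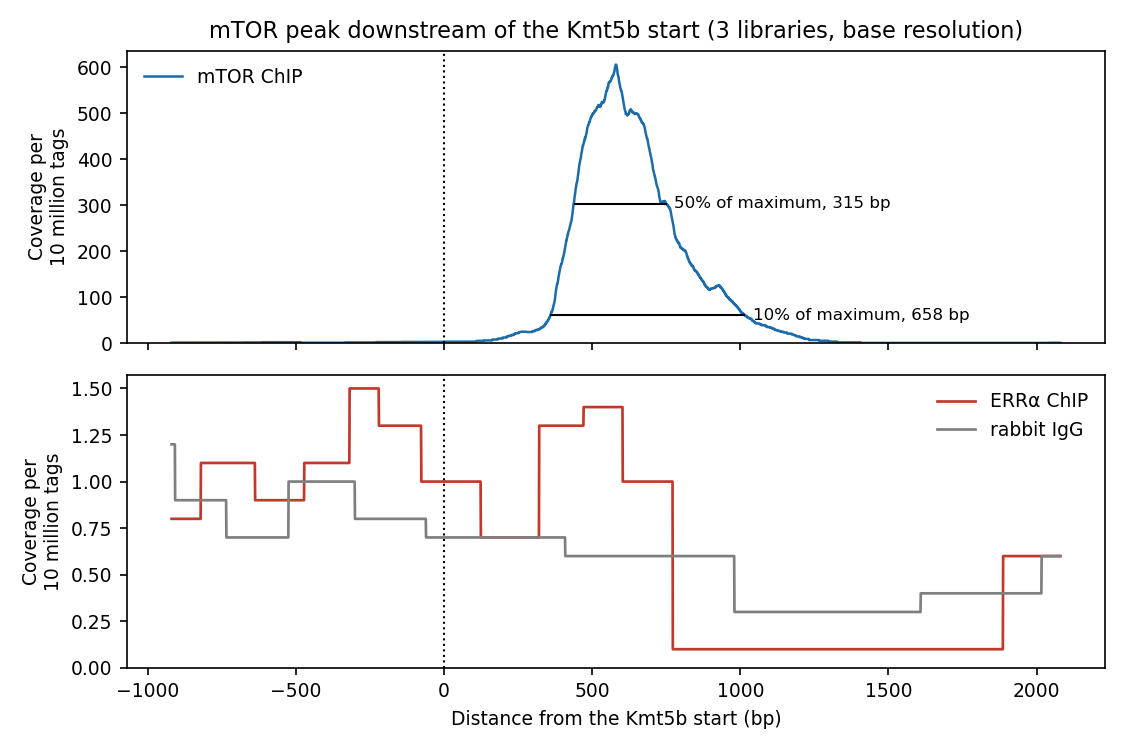
Coverage per 10000000 tags (vertical axes, linear, from 0) at each base against distance from the Kmt5b start in bp (horizontal axis; dotted line at the start), with the mTOR library above and the ERRα and IgG libraries below on their own scale. Black lines mark the width at 50% (315 bp) and 10% (658 bp) of the mTOR maximum of 606, and the lower panel shows that ERRα and IgG do not exceed 1.5 there.

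The number of tags behind the peak was large. The region held about 8882 mTOR tags, while ERRα had 44 and IgG 35. That was 0.0142% of all mTOR coverage and 1.26% of the coverage in all mTOR regions, where an equal share would be 0.0110%. About 3788 tags lay over the summit base. With 150-bp tags and at most 1 tag per position and strand, no base could be covered by more than 300 tags, or 48.0 units, so the track holds several tags per position at this peak. Whether these are copies of 1 fragment or separate fragments cannot be told apart in coverage. The levels, folds and ranks given for this peak include all of these tags. They could not be recomputed with 1 tag per position, since only coverage was available.

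Outside the peak the mTOR ChIP resembled IgG. In the 98 other bins mTOR coverage ranged from 0.200 to 2.62 with a median of 0.602, and IgG coverage from 0.200 to 1.47 with a median of 0.600. The fold of mTOR over IgG had a median of 1.01 in these bins, and its interval lay above 1 in 2 of them and below 1 in 0. The first of the 2 adjoined the peak, from -220 to -21 bp, with 2.62 in mTOR, 1.21 in ERRα and 0.779 in IgG, or 2.88-fold (1.43 to 9.59). The second lay from 6580 to 6779 bp downstream of the start, with 1.99, 1.17 and 0.600, or 2.74-fold (1.17 to 9.66). Neither reached the 3-fold minimum, and the intervals were not adjusted for the number of bins. No separate side peak of mTOR was therefore called in the window.

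The fold of ERRα over IgG ranged from 0.375 to 2.38 over the bins of the window, with a median of 1.00. For ERRα 0 of 105 bins were called, against 0.327% of all bins of the genome, a share so low that a count of 0 in 105 bins is not a result about Kmt5b. The highest fold, 2.38 (0.961 to 9.78), was in the bin from -2220 to -2021 bp, with ERRα at 1.47 and IgG at 0.5. At the highest mTOR bin ERRα was 1.51-fold over IgG (0.509 to 5.17), an interval that includes 1. Over the 1400-bp region it was 1.12-fold (0.731 to 1.87). A rise of ERRα above 1.87-fold over the region lies outside that counting interval, while smaller rises lie within it. The interval lay above 1 in 1 of 105 bins, from -2820 to -2621 bp, where ERRα coverage was 1.99, mTOR 0.600 and IgG 0.780, or 2.24-fold (1.08 to 7.42). This bin and that of the highest fold lay upstream of the start and away from the mTOR peak. With the roles swapped, IgG exceeded either ChIP by the same criteria in 0 bins of the window.

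Beyond the summit, ERRα and IgG coverage both became thin. From 780 to 1379 bp ERRα was at 0.100 in each bin and IgG at 0.6, 0.3 and 0.3, where mTOR was at 146, 42.2 and 6.27. The ERRα track gave a single value over 1115 bp there. It had 6 intervals in the region, with a median length of 183 bp, and IgG had 5, with a median of 242 bp. The mTOR track had 468 intervals with a median of 1 bp. Steps of 50 bp therefore resolve mTOR but not the other libraries.

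Among all 200-bp bins, the Kmt5b bin ranked 1 of 12372285 outside repeats. Repeats were taken as the 12297 bins with IgG above the minimum level. With these included it ranked 48, and each of the 47 bins above it was bright in every library, with IgG at 450.1 or more, ERRα at 387 or more and mTOR at 0.903 to 1.07 times IgG. The same Kmt5b bin was unremarkable in IgG, where 56.1% of all bins were lower, while 91.6% were lower in ERRα. The Kmt5b bin was thus high in mTOR and not in IgG, while the repeat bins above it were high in all 3 libraries.

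Among the 9043 mTOR regions whose highest bin lay outside repeats, the Kmt5b region ranked 1 by level, 1 by summed excess over IgG, 2 by fold over IgG and 2 by mTOR over ERRα. Its level was 1.60 times that of the next region, chr11:86570601-86571800, at 267, and its summed excess was 2.14 times the next largest. The following regions by level were chr9:82868801-82869800 at 165, chr5:137974001-137975000 at 143, chr17:23683201-23684800 at 127 and chr2:116946001-116947000 at 108. A region on chromosome 9 had a slightly larger fold over IgG, 552 against 533, because its IgG value was 0.100 from about 1 tag. The intervals of the 2 folds overlap widely, at 273 to 60218 for that region and 300.0 to 1782.5 for Kmt5b. Their order is therefore not resolved. By mTOR over ERRα, chr2:116946001-116947000 stood slightly higher, at 362 against 352, and its ERRα value was only 0.100. No interval is given for that ratio there, so this order is not resolved either.

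**Figure D3:**
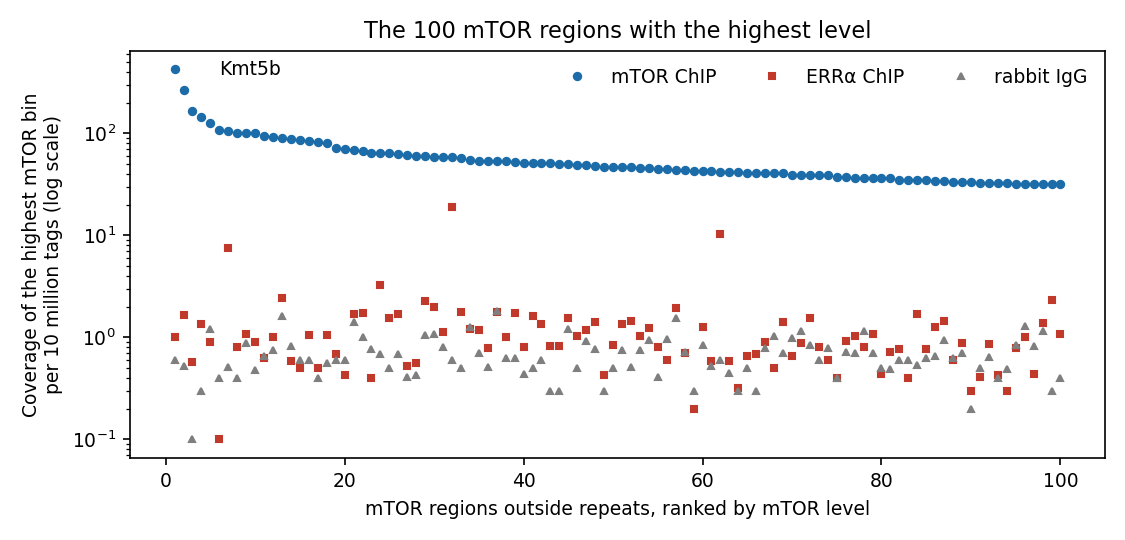
Coverage of the highest mTOR bin per 10000000 tags (vertical axis, log scale) for the 100 mTOR regions of the highest level outside repeats, in order of mTOR level (horizontal axis), with the mTOR (circles), ERRα (squares) and IgG (triangles) libraries. Kmt5b is at 426, the next at 267, and the other 99 regions have a median of 46.8.

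The Kmt5b peak was extreme in height but ordinary in width when measured at a share of its own maximum. Its width of 315 bp at 50% of the maximum exceeded that of 32 of the other 99 strongest regions, whose median was 334 bp with quartiles of 303 and 388.5. At 25% of the maximum it was 467 bp against a median of 474. The called region was 1400 bp wide against a median of 1000, wider than 77 of the 99. Its edges are set by the fixed calling thresholds, not by a share of its maximum, so this width is a different measure. The imbalance of its sides, as the log2 ratio of the edges regardless of direction, depended on the height. It was 0.28 at 50% of the maximum, larger than in 32 of the 99 regions (median 0.42), and 0.54 at 25%, larger than in 60 (median 0.40). At 10% it was 0.99, larger than in 82 (median 0.39).

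ERRα at the Kmt5b bin was also near the middle of these regions. Its fold over IgG of 1.51 exceeded that of 63 of the other 99 regions, whose median was 1.26 with quartiles of 0.995 and 1.68. Of these 99 regions, 6 had ERRα at 3-fold or more over IgG, and the counting interval lay above 1 in 11. Over the genome 0.327% of bins were called for ERRα, but that call also required a minimum level. The same shares were not computed over all bins, so whether ERRα is raised at strong mTOR regions was not tested. In 88 of them, as at Kmt5b, the interval included 1. ERRα and mTOR were both divided by the same IgG library here.

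By shape, the closest of the 100 strongest regions was chr11:48631801-48632400, which ranked 18 by level at 80.5 and had a width of 325 bp. Likeness was measured as the root mean square difference of the mTOR profile in 50-bp steps within 1 kb of the maximum, each divided by its own maximum, and that of the closest region was 0.0465. The next were chr1:84835801-84836600 at 0.0498, chr2:164736601-164737600 at 0.0511, chr5:108494201-108495000 at 0.0521 and chr6:53946601-53947400 at 0.0527, the chromosome 2 profile being mirrored. Their mTOR levels ran from 40.7 to 106, so the Kmt5b level was 4.02 to 10.5 times that of the regions closest to it in shape. Of these 5, chr1:84835801-84836600 differed from Kmt5b in ERRα, where ERRα coverage was 7.60 and IgG coverage 0.515, a 10.9-fold excess (5.78 to 44.6).

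**Figure D4:**
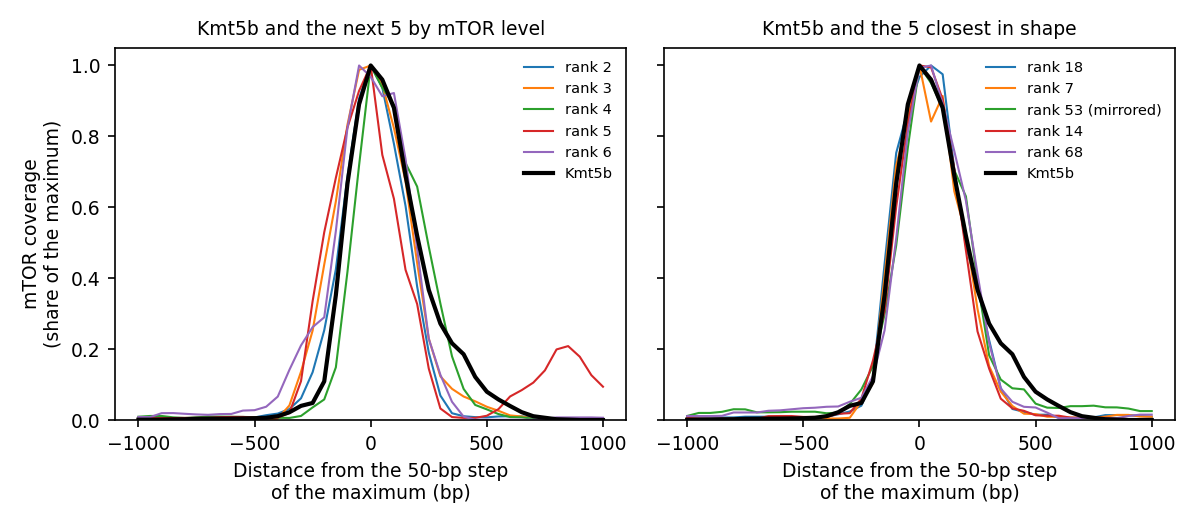
mTOR coverage as a share of each region's own maximum (vertical axis, linear) against distance in bp from the 50-bp step of the maximum (horizontal axis), for Kmt5b (black) with the next 5 regions by level (left) and the 5 closest in shape (right). All profiles share the centre by construction, and the region of rank 5 by level has a separate rise to 0.209 of its maximum away from the centre, which Kmt5b lacks.

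The neighbourhood of Kmt5b held other called regions of lower level. The nearest mTOR region upstream was chr19:3747401-3747800, 19.6 kb away, at 5.58 in mTOR against 0.954 in IgG, or 5.0-fold. Downstream the nearest was chr19:3831801-3832000, 63 kb away, at 3.54 against 0.462. There were 3 other mTOR regions within 50 kb and 8 within 100 kb, none above 6.51 in mTOR. For ERRα there were 0 within 50 kb and 6 within 100 kb, the highest at 24.9 in ERRα. The nearest ERRα region was chr19:3820001-3820200, 51.2 kb downstream, at 3.17 against 0.732 in IgG. Over the genome, 9069 mTOR and 21765 ERRα regions were called among 12384582 tested bins of 200 bp. The local counts were not compared with other places in the genome, so nothing is read from them. In the order of RefSeq genes by start on GRCm38.p6, Kmt5b follows the pseudogene Gm2141 and precedes the long noncoding RNA gene Gm16066.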

How the data were processed

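Each group held 1 library, assigned by sample title. The deposited files hold a signal, the coverage of tags, which per the file headers was normalized to 10000000 tags; BWA 0.5.9, MACS 1.4.1 and build mm9 stand in the submitters' processing notes without a role. How tags were extended and duplicates handled is not stated; coverage divided by tags gave 149.3 to 149.9 bp. Coverage was averaged over 200-bp bins of chromosomes 1 to 19, X and Y. A bin was tested where any library had coverage (12384582 bins), and called at 3-fold over IgG with a pseudocount of 0.2 (5th percentile of IgG bins above 0) and a level above 2.01 (exceeded by 1 in 1000 such bins), about 16.8 mTOR tags. Adjacent called bins were merged. With 1 library per group there was no test. Levels, shape and ranks are descriptions.

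The window, gene and lists were chosen with earlier results of these data known. Regions were named by rule: the 5 next by level, and the 5 closest in shape. Apart from the Kmt5b start, no mm9 gene positions were used, so a list of other genes of histone H4 methylation was not analysed here. Motif letters were searched in RefSeq sequences of GRCm38.p6; both Kmt5b entries matched by symbol. Scripts were tested on simulated data. Tools were Python 3.11.15, NumPy 2.4.6, pandas 2.3.3, SciPy 1.17.1 and Matplotlib 3.10.9.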

Additional observations from a re-analysis of the deposited data

How the results depend on the processing

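No paired analysis was possible because each group holds 1 library, and no library could be left out. The folds at the Kmt5b bin stayed within their counting intervals with the pseudocount doubled or absent, 50-bp bins, a shifted grid and equal medians of 10-kb bins, and, for the folds over IgG, with the genome-wide mean or the flanks in place of IgG. The whole region was an alternative chosen after seeing the data. Over it mTOR was 204-fold over IgG (201 to 401) and 181-fold over ERRα (178 to 330). These folds were lower than at the bin, since the region includes its flanks. The rank of 1 became 48 with repeats included and 2 by fold over IgG. The summit moved from 580 to 555 bp in 50-bp steps and to 636 bp as the centre of mass. The width was 350 bp in 50-bp steps, 312 bp with IgG subtracted and 467 bp at 25% of the maximum. With 50-bp bins, 30 mTOR bins were called in place of 7 wider ones. At a minimum of 5-fold 6 bins were called, since the first bin, from -20 to 179 bp, was at 4.96-fold. With the genome-wide mean in place of IgG 8 were called. The region edge at -20 bp therefore depends on the setting. The ERRα count was 0 under every alternative run for it. Depth limits the ERRα and IgG values, which rest on about 10 and 6 tags at the highest bin.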
